A study of Rattus norvegicus with 20 samples.

Results

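Genes that mark white blood cells and macrophages were followed in injured rat brain: Ptprc, Fcer1g, Cd37, Blnk, Lyz2, Mrc1 and Trem2. These 7 genes were taken by name from the 750 endogenous genes of the panel, and all 7 were found. The 10 rats were female and had a controlled cortical impact, a mechanical contusion of the cortex that models traumatic brain injury. From every rat, tissue of the injured side (ipsilateral) and tissue of the other side (contralateral) were measured, which makes 20 libraries in 10 pairs. L-myc immortalized human neural stem cells were given through the nose to some rats and vehicle to the rest. No label ties a rat to either treatment, so both hemisphere groups mix them. The sources used here give no strain, age or time after injury. The contralateral hemisphere comes from the same injured and treated animals and is no uninjured control.

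CD45, the product of Ptprc, is a tyrosine phosphatase on the surface of all nucleated blood cells, and it is also present on microglia, the resident macrophages of the brain. Fcer1g encodes a short signalling chain shared by several antibody receptors. Signals from such receptors pass through kinases to adaptors, of which Blnk is one. Lyz2 and Mrc1 encode a bacteria-degrading enzyme and a sugar-binding uptake receptor of macrophages. After a contusion, microglia at the injury change state and blood monocytes enter the tissue, and both can carry these transcripts.

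RNA was counted on the NanoString nCounter, which counts barcoded probes bound to RNA one by one without amplification. Total counts per library ran from 34454 to 319964 over 770 genes, and the factors that put libraries on 1 scale ran from 0.289 to 4.27. Values below are scaled counts, the raw count divided by that factor. The 8 negative control probes bind nothing in the sample and averaged 4.68 ± 2.63 contralateral and 6.67 ± 2.12 ipsilateral scaled counts (SD, n = 10 each). Of the transcript accessions listed with the 770 probes, 0 were found among rat RefSeq transcripts, and those of the 7 genes are mouse transcripts. How well each probe binds the rat RNA was not tested, so counts of different genes do not give their relative abundance, and a low count does not show that a transcript is scarce. By the column headers, all ipsilateral libraries belong to a numbered set of their own and all contralateral ones to another, so set and hemisphere cannot be told apart. The positive control counts were on average 1.45-fold higher in the ipsilateral set.

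Stretches around the start site are shown for Ptprc, Cd37, Lyz2 and Trem2. Each runs 5′ to 3′ from 250 bases before to 50 bases after the RefSeq start site in the rat build GRCr8. The windows lie on the minus strand at chr13:52259697-52259996 for Ptprc, chr1:104860735-104861034 for Cd37, chr7:54797962-54798261 for Lyz2 and chr9:20151730-20152029 for Trem2. Capitals mark GGAAGT and its reverse complement ACTTCC, a form of the sites bound by ETS factors such as PU.1, the factor that directs myeloid development. Other forms that share the letters GGAA were neither marked nor counted. The Trem2 window holds GGAAGA and the Lyz2 window also GGAAGC, so an unmarked window does not lack such letters.
Ptprc: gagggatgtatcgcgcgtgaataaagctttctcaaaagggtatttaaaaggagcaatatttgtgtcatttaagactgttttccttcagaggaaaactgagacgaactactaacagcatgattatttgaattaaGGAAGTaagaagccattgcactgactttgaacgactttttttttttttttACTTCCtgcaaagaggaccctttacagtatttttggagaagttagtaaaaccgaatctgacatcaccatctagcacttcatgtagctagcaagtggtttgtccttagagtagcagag
Cd37: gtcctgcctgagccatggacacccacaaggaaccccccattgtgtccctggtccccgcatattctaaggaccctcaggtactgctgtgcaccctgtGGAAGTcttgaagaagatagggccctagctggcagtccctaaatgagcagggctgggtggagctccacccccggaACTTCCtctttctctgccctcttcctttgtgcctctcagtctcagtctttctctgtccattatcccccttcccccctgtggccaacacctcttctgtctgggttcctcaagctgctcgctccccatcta
Lyz2: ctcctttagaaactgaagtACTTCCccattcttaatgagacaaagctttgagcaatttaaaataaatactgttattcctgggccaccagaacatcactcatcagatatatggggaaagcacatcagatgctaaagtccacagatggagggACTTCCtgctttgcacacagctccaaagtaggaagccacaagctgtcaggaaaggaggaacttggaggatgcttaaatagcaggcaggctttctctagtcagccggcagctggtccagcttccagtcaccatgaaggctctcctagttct
Trem2: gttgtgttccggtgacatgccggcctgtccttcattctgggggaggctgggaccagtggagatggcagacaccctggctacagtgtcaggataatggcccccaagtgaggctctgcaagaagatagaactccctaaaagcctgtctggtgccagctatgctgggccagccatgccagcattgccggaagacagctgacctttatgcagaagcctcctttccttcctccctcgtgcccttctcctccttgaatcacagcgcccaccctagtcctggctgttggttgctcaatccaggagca
Of the 6 genes with an entry in the RefSeq promoter table, 5 held GGAAGT on either strand (Ptprc, Cd37, Blnk, Lyz2 and Mrc1), as did 22.6% of all 33469 windows of this length. Fcer1g is the gene with no entry. Ptprc, Cd37 and Lyz2 held 2 matches each, Blnk and Mrc1 1 each. The match in Cd37 that starts 79 bases before the start site reads GAGGAAGT on the opposite strand, the longer form preferred by PU.1, which 2.42% of all windows held. These 6-letter and 8-letter matches overlap by construction. The letters were chosen with these windows in view, and a match is a stretch of sequence, not a shown binding site. The windows shown are those with 2 matches each and that of Trem2, with 0. Whether these letters bear on the hemisphere differences was not tested.

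Each injured hemisphere was set against the other hemisphere of the same rat, to see which transcripts the injury side holds at another level. Counts of all 6 members abundant enough to test were higher on the injured side, between 2.07-fold for Blnk and 3.27-fold for Lyz2. A gene was tested when its raw count averaged at least 20 over the 20 libraries, which 193 of the 750 genes did, and called at an adjusted p under 0.05 in edgeR's quasi-likelihood test with the animal as a block. Trem2, with a mean raw count of 13.5, was not tested in this way. Of all tested genes 57.5% were called, 47.2% higher and 10.4% lower, and 17.6% were called higher and at least 2-fold. The 6 genes all lie in that second part, with log2 fold changes ranked between 9 and 31 of 193. Their median was 1.34, against 0.30 for all tested genes. Because the members were chosen with earlier results of these data known, neither ranks nor median test them against the rest. Ptprc had a mean raw count of 17.5 contralaterally and 36.6 ipsilaterally, so it passed the minimum only through the side where it was higher. In whole tissue, more cells of a type and more RNA per cell cannot be told apart.

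**Figure D1:**
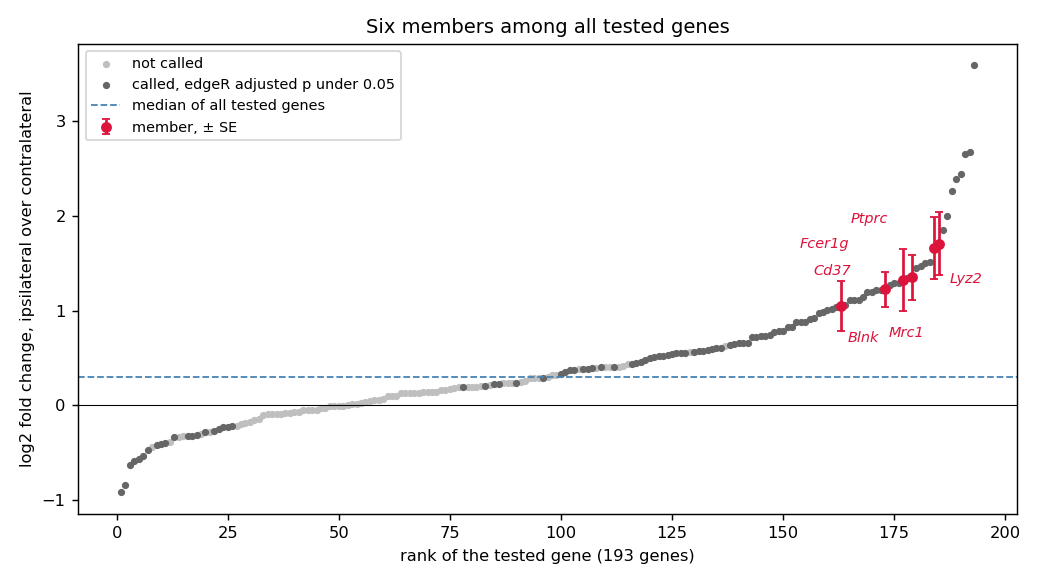
Log2 fold change (ipsilateral over contralateral, vertical axis) of the 193 tested genes in order of size (horizontal axis). Dark points were called in edgeR, red points with bars are the 6 tested members ± SE, and the dashed line is the median of all tested genes at 0.30. All 6 members lie between 1.05 and 1.71.

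Ptprc had from 5.05 to 20.2 contralateral scaled counts, with a median of 12.1. On the injured side it ran from 7.30 to 72.6, with a median of 46.7. The 7 ipsilateral libraries of animals 2, 4, 6, 7, 8, 11 and 12, from 41.4 up, lay above every contralateral library, and those of animals 3, 5 and 10 (7.30, 8.11 and 13.2) lay among them. The group means were 39.2 ± 22.2 ipsilateral and 12.01 ± 4.43 contralateral (SD, n = 10 each), and the log2 fold change was 1.66 ± 0.33 (SE, edgeR adjusted p = 0.00172). It was higher in 8 of 10 animals, and 54.9% of all tested genes were higher in at least 8. Counts were low: only 6 of 10 contralateral libraries exceeded the highest negative control of the same library, against 8 of 10 ipsilateral. The contralateral values thus lie near background, and after subtraction of the negative control mean the log2 fold change was 2.09.

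Fcer1g, whose protein carries the activating signal of antibody receptors into the cell, exceeded the highest negative control in all 20 libraries. It ran from 56.2 to 107 contralaterally (median 76.6) and from 67.3 to 436 ipsilaterally (median 234). The means were 227 ± 129 and 77.8 ± 16.2 scaled counts (SD, n = 10 each), with a log2 fold change of 1.352 ± 0.235 (SE, edgeR adjusted p = 0.0011). It was higher in 9 of 10 animals, with animal 3 the exception at 67.3 against 71.0.

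Blnk, an adaptor that links receptor-proximal kinases to phospholipase C in B cells and also in macrophages, had the smallest increase of the 6. It ran from 14.1 to 28.4 contralaterally (median 20.02) and from 15.3 to 82.3 ipsilaterally (median 44.1). The means were 44.9 ± 23.8 and 20.4 ± 4.07 (SD, n = 10 each), and the log2 fold change was 1.05 ± 0.26 (SE, edgeR adjusted p = 0.00543), higher in 8 of 10 animals. Markers of B and plasma cells gave no measure to set beside it. All 10 such genes on the panel fell under the minimum count. Cd79a, a chain of the B cell receptor, averaged 3.80 raw counts against 5.28 for the negative controls. The most abundant of them, the survival receptor Tnfrsf13c, averaged 12.6, exceeded the highest negative control in 8 of 20 libraries and was higher ipsilaterally in 8 of 10 animals. It did not pass at a minimum count of 10 (log2 fold change 0.36 ± 0.19 SE, edgeR adjusted p = 0.128).

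Cd37 encodes a tetraspanin, a membrane organiser restricted to white blood cells and prominent in B cells. It ran from 15.1 to 42.2 contralaterally (median 29.1) and from 24.8 to 104 ipsilaterally (median 85.2). This was the one member higher in 10 of 10 animals, although the difference in animal 3 was only 27.6 against 26.2. The means were 70.4 ± 33.0 and 28.4 ± 7.83 (SD, n = 10 each), and the log2 fold change of 1.22 ± 0.18 (SE) had the smallest error of the 6 (edgeR adjusted p = 0.000786).

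Lyz2, the lysozyme of macrophages and granulocytes, had the largest log2 fold change of the 6 in the main analysis, although it exceeded Ptprc by less than either SE. Of 21 alternatives in which both were tested, Ptprc was the larger in 7, among them background subtraction (2.09 against 1.78). Lyz2 ran from 94.6 to 198 contralaterally (median 125) and from 126 to 1121 ipsilaterally (median 430). The libraries of animals 6 and 8 stood at the top, with 1121 and 1015 scaled counts, and that of animal 10 at the bottom. The means were 516 ± 350 and 130 ± 31.2 (SD, n = 10 each), and the log2 fold change was 1.71 ± 0.33 (SE, edgeR adjusted p = 0.00151), higher in 9 of 10 animals.

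Mrc1, the mannose receptor that in brain marks the macrophages around vessels and in the meninges, ran from 8.40 to 24.5 contralaterally (median 15.8). Ipsilaterally it ran from 14.6 to 117 (median 41.4). Its highest library, from animal 6, stood at 117 against 62.0 for the next, and the same animal had the lowest contralateral value. The means were 44.1 ± 29.9 and 15.9 ± 4.44 (SD, n = 10 each), and the log2 fold change was 1.33 ± 0.33 (SE, edgeR adjusted p = 0.00524), higher in 8 of 10 animals.

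**Figure D2:**
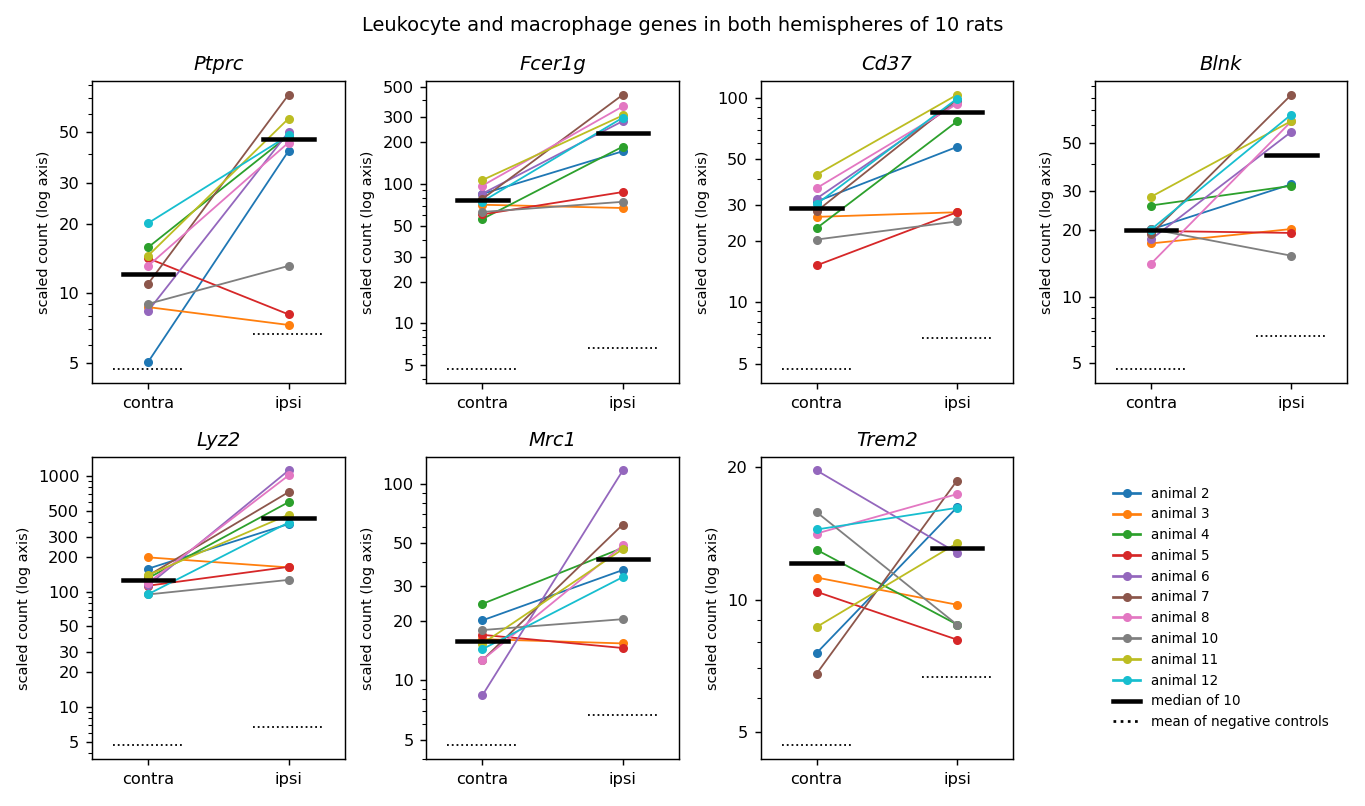
Scaled counts (vertical, log axes) of the 7 genes in the contralateral and ipsilateral hemisphere, with a line for each of 10 animals, black bars for group medians and dotted lines for the mean of the negative controls. Lines of animals 3, 5 and 10 stay low in the first 6 panels, and lines of Trem2 cross.

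Trem2, a lipid-sensing receptor of microglia and macrophages that is linked to their response to damage, was low in both hemispheres. Its scaled counts ran from 6.80 to 19.6 contralaterally (median 12.1) and from 8.11 to 18.6 ipsilaterally (median 13.1). The groups overlapped throughout, with no ipsilateral library above the highest contralateral one. The means were 12.98 ± 3.95 and 12.1 ± 3.995 (SD, n = 10 each), and the value was higher in 5 animals and lower in 5. The mean difference within animals was 0.10 ± 0.70 (SD, n = 10) on the scale of log2(scaled count + 1), and an exact two-sided paired permutation test gave p = 0.684. The sign turned with the scaling, to -0.16 under TMM and -0.32 under median centring of the libraries (exact p = 0.434 and 0.16). With a minimum count of 10, edgeR gave a log2 fold change of 0.18 ± 0.25 (SE, adjusted p = 0.551), whose 95% interval (normal approximation) ran from -0.32 to 0.68. Trem2 exceeded the highest negative control in 8 of 10 contralateral and 4 of 10 ipsilateral libraries, so its counts lay close to background.

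Because a library's factor divides every gene of that library, ratios of raw counts between members do not depend on it. The ratio of Lyz2 to Fcer1g was higher ipsilaterally in 8 of 10 animals, with medians of 2.06 and 1.63, and reached 3.97 in animal 6. Lyz2 over Mrc1 was also higher in 8 of 10, with medians of 10.9 and 8.46. Fcer1g over Cd37 had medians of 2.996 ipsilaterally and 2.70 contralaterally and was higher in 6 of 10 animals. Mrc1 over Ptprc was higher in 4 of 10, with medians of 1.03 and 1.17. These ratios were not tested, and both ends of each carry counting error and background. Ptprc and Mrc1 exceeded the highest negative control in 6 and 8 of 10 contralateral libraries. Trem2 did so in 8 of 10 contralateral libraries but in only 4 of 10 ipsilateral ones, against 8 for Ptprc and 9 for Mrc1. No ratio to Trem2 is given for that reason.

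**Figure D3:**
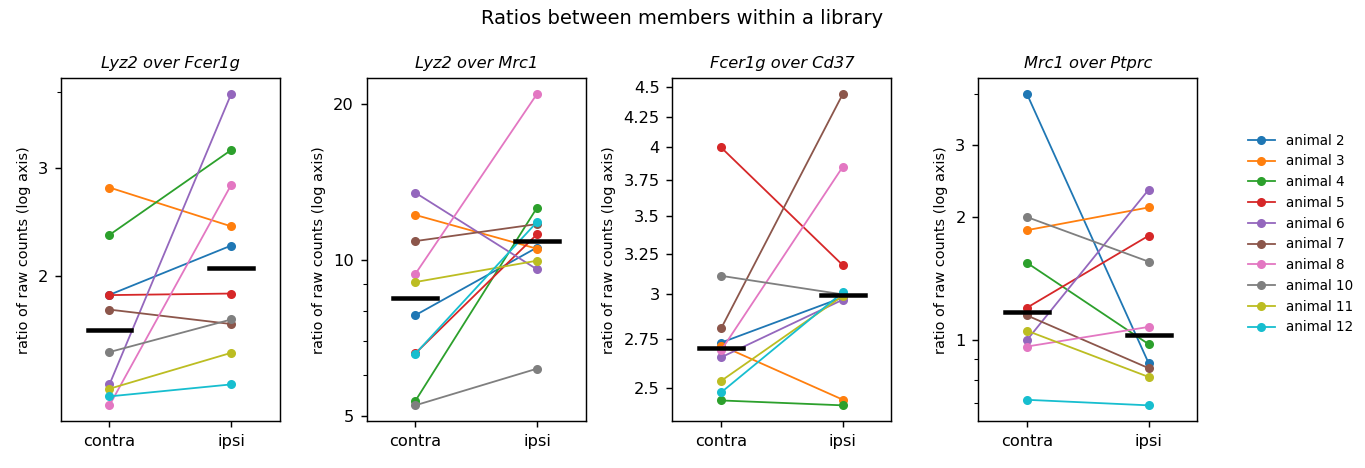
Ratios of raw counts between members within a library (vertical, log axes) in the contralateral and ipsilateral hemisphere, with a line for each of 10 animals and black bars for medians. The median of Lyz2 over Mrc1 goes from 8.46 to 10.9, while lines of Mrc1 over Ptprc go both ways.

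The 6 tested genes divided the animals alike. For each of them the same 7 animals (2, 4, 6, 7, 8, 11 and 12) lay above the highest contralateral library and the same 3 (3, 5 and 10) did not. Of all tested genes, 23.3% showed exactly these 7 animals above, and 34.2% had at least 7 ipsilateral libraries above. The pattern is thus shared by 45 of the 193 tested genes and is not particular to these members. The order among animals differed by gene. The difference of Ptprc was largest in animal 2 at 2.81 on the log2 scale, where Fcer1g stood at 1.01 and Blnk at 0.65. The contralateral Ptprc behind that value was a raw count of 6. In animal 6 Mrc1 (3.65) and Lyz2 (3.29) had their largest differences, against 1.71 for Fcer1g and 1.53 for Cd37. Animal 7 had the largest for Fcer1g (2.46) and Cd37 (1.78), and animal 8 for Blnk (2.07). In animal 4 Lyz2 differed by 2.18 and Blnk by 0.29.

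**Figure D4:**
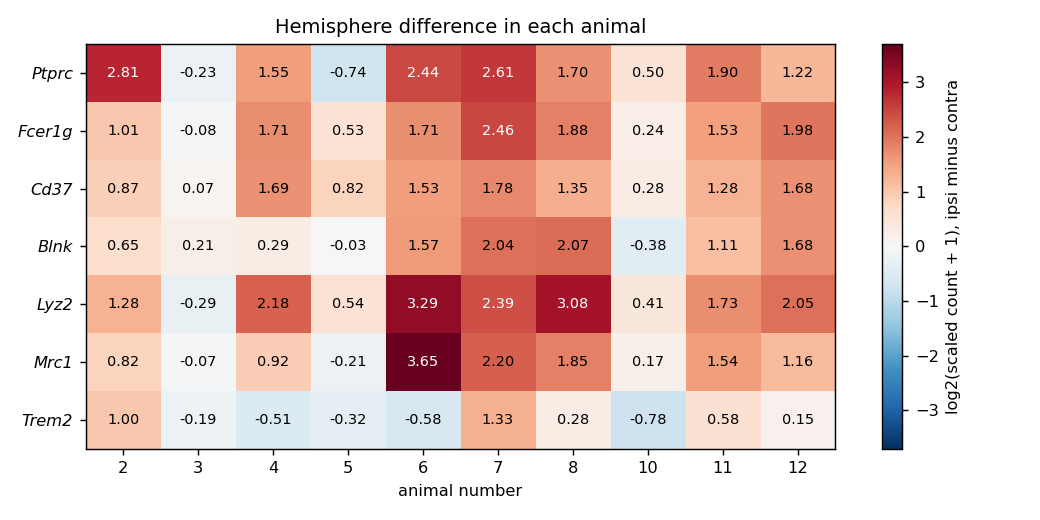
Difference of log2(scaled count + 1), ipsilateral minus contralateral, for each gene (rows) in each of 10 animals (columns), with red for higher ipsilaterally and blue for lower. Columns 3, 5 and 10 are pale, and the darkest cells are Mrc1 and Lyz2 in animal 6.

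Values spread more on the injured side. The SD of log2(scaled count + 1) among ipsilateral libraries was 1.17 for Ptprc, 1.11 for Lyz2 and 0.99 for Fcer1g, against 0.52, 0.33 and 0.29 contralaterally. It was larger ipsilaterally for 6 of the 7 genes, and for Trem2 it was 0.42 against 0.45. The same held for 83.4% of all tested genes, with median SDs of 0.41 and 0.25. The share of the members is read against that.

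Among tested genes outside the 7, those with the most similar course over the 20 libraries were found by the mean absolute difference of log2 values, each gene centred on its own mean. Nearest to Cd37 were Tgfb1, a cytokine made by activated microglia and macrophages, and the lysosomal protease Ctsh, with differences of 0.203 and 0.204. The member nearest to Cd37 was closer still, Fcer1g at 0.181. Nearest to Fcer1g were Cd63, a tetraspanin of lysosomes and secretory vesicles (0.225), and Tgfb1 (0.232). Ptprc was nearest to Tgfb1 and Ctsh at 0.380 and 0.392, the loosest match. Blnk was nearest to the chaperone Clu (0.212), and Lyz2 to Ifitm2, an antiviral membrane protein (0.255), and Fn1, fibronectin (0.280). Mrc1 was nearest to Cd63 (0.279) and Il13ra1, a receptor subunit for interleukin-13 (0.291). Trem2 was nearest to Cd7 (0.235) and Mertk (0.263), neither of which passed the test (edgeR adjusted p = 0.217 and 0.121). Fcer1g and Cd37 were thus each closer to the other than to any outside gene. The nearest member of Ptprc, Blnk, Lyz2, Mrc1 and Trem2 lay farther off than their nearest outside gene. These distances to the nearest member were 0.407, 0.265, 0.384, 0.365 and 0.573. The median difference to all tested genes was between 0.427 for Trem2 and 0.879 for Lyz2.

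Genes that carry signals from receptors such as the Fc receptors were mostly at background on this panel. Of 32 listed genes 16 were on it and 5 were tested, of which 4 rose, where 47.2% of all tested genes were called higher. Among these were the kinase subunit Pik3cg (log2 fold change 1.01 ± 0.19 SE), the transcription factor Nfatc1 (0.88 ± 0.21 SE) and the lipid phosphatase Inpp5d (0.78 ± 0.17 SE). The edgeR adjusted p was 0.00147 for Pik3cg, 0.00496 for Nfatc1 and 0.00294 for Inpp5d. The call of Inpp5d was lost with median centring (0.32, edgeR adjusted p = 0.1). The kinase Prkcd, which was not called, stood at 0.42 ± 0.18 SE (edgeR adjusted p = 0.0564). The median of the 5 was 0.88, against 0.30 for all tested genes, and this list too was chosen with earlier results known. The kinases Syk, Lyn and Btk, which act in the same pathways as Blnk, averaged 4, 7.10 and 6.40 raw counts and were not tested.

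Other markers of white blood cells gave little to set beside the 7 genes. None of the 14 pan-leukocyte genes on the panel reached the minimum count, and each averaged at most 6.15 raw counts. With no minimum count 1 of the 14 was called higher, Cd84 (1.10 ± 0.37 SE, edgeR adjusted p = 0.0489), where 13.7% of 750 genes were. Cd84 averaged 3.80 raw counts and exceeded the highest negative control in 0 of 20 libraries, so its counts lay at background. Of 21 microglia and macrophage markers 2 were tested: the phagosome protein Cd68 was higher (2.65 ± 0.37 SE, edgeR adjusted p = 0.000715) and Mertk stood at 0.29 ± 0.15 SE. At a minimum count of 10, where 38.1% of 265 genes were called higher, 5 were tested and 2 called higher, Cd68 and the costimulatory gene Cd86. Csf1r, Cx3cr1 and Itgam, which mark microglia but also other myeloid cells, averaged 5.20, 3.45 and 2.10 raw counts, at or under the negative control mean of 5.28. These genes are thus no check of cell identity in these libraries. The 9 neutrophil genes averaged at most 6.90 raw counts. Summed over 18 T and NK cell genes, libraries held 81.3 to 236 contralateral and 114 to 315 ipsilateral scaled counts, where 18 probes at background would sum to 84.2 and 120. Of these genes 2 were tested and 0 called. Cd3e stood at -0.38 ± 0.39 SE and Cd7 at 0.23 ± 0.16 SE (edgeR adjusted p = 0.409 and 0.217).

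Genes listed for other cell types also differed between the hemispheres in the main analysis, neuronal genes lower and fibroblast and endothelial genes higher. These calls are to be read against 47.2% of all tested genes called higher and 10.4% lower. Under TMM these shares were 30.1% and 24.4%, and under median centring 20.7% and 36.8%. The 4 neuronal genes tested, Nefl, Egr1, Mpped1 and Cyfip2, were lower on the injured side with each of 6 scalings. Only 3 of them were called with Gusb left out of the housekeeping set. Whether their counts come from neurons alone was not tested. The sum of the 4 ran from 3634 to 5158 scaled counts contralaterally and from 1821 to 4751 ipsilaterally. Cyfip2 had the highest counts of the 4, with means of 2766 contralaterally and 1927 ipsilaterally, so the sum mostly follows that gene. The 2 fibroblast collagens tested, Col1a1 and Col3a1, were higher (1.85 ± 0.45 and 2.39 ± 0.52 SE, edgeR adjusted p = 0.00494 and 0.00294) and were called under all 6 scalings. The sum of the 3 fibroblast genes on the panel ran from 28.0 to 159 contralaterally and from 104 to 1948 ipsilaterally. All 4 tested endothelial genes were called higher in the main analysis, 2 under TMM and 1 under median centring, where 3 of the 4 were above 0. At a minimum count of 10, where 38.1% of 265 genes were called higher, 5 were tested and 4 called higher. Pecam1 was not called there (0.27 ± 0.32 SE, edgeR adjusted p = 0.473). The 7 endothelial genes on the panel summed to 183 to 326 contralateral and 178 to 471 ipsilateral scaled counts. The part of these differences in the values of the 7 genes was not tested. The astrocyte gene S100b averaged 2.40 raw counts, at background.

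The 6 genes were called higher under each of 6 scalings. Gusb, a lysosomal enzyme among the 17 housekeeping genes behind the factors, was itself 1.02 higher ipsilaterally on the scale of log2(scaled count + 1), the largest shift among the 17. Under median centring, which gave the lowest values, log2 fold changes were 1.19 for Ptprc, 0.89 for Fcer1g, 0.76 for Cd37, 0.60 for Blnk, 1.24 for Lyz2 and 0.88 for Mrc1. The median of all tested genes stood at -0.15 there, at 0.02 under TMM and at 0.30 in the main analysis. Distances between the members and the other genes thus changed less than the values themselves.

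**Figure D5:**
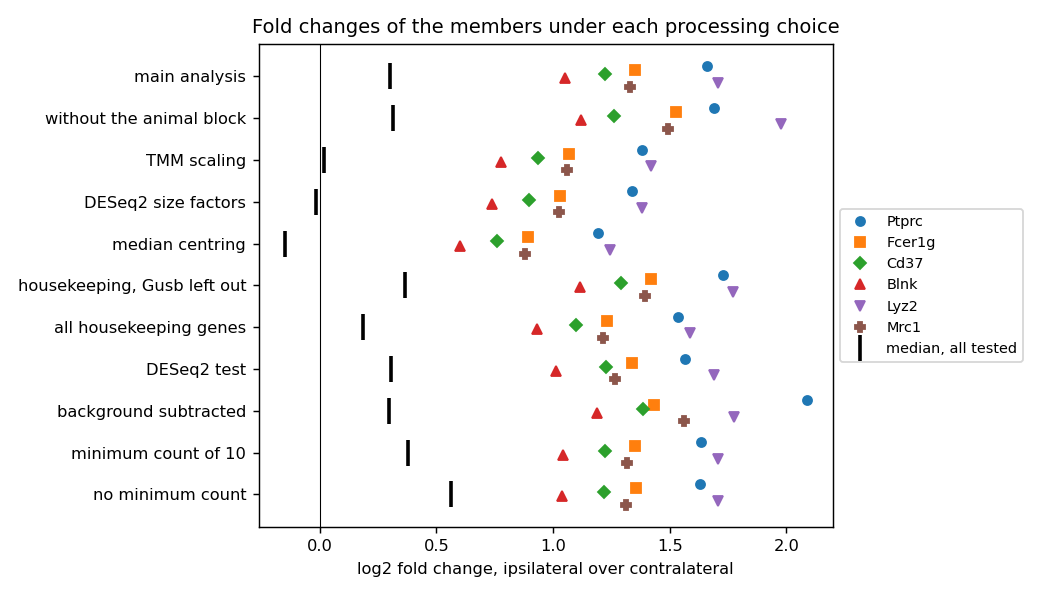
Log2 fold change, ipsilateral over contralateral (horizontal axis), of the 6 tested members under 11 processing choices (rows), with black bars for the median of all tested genes. Members lie right of the bar in every row, from 0.60 for Blnk under median centring to 2.09 for Ptprc after background subtraction.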

How the data were processed

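The authors deposited whole numbers that were read as counts, in 784 rows of 1 probe each: 750 endogenous genes, 20 taken as housekeeping genes, 8 negative and 6 positive controls. Housekeeping rows are not marked and were recognised as the separate alphabetical block before the controls. Per the labels' protocols, RNA was counted on the nCounter Digital Analyzer and handled in nSolver. The design text describes normalization by the authors, but the deposited counts do not carry it: negative controls are not subtracted, and the geometric mean of the positive controls varies 2.09-fold over the libraries. They were treated as raw. A second table repeats the counts with animal numbers permuted in 20 of 20 columns, but within a hemisphere and with all 10 pairs kept. Animal numbers follow the matrix headers.

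The factor of a library is its geometric mean over 17 housekeeping genes (those averaging 20 counts or more), scaled to a geometric mean of 1. Hemispheres were compared in edgeR 4.0.16 (R 4.3.3; glmQLFit, glmQLFTest, two-sided, animal as a block, Benjamini-Hochberg over 193 genes). The SE is the log2 fold change divided by the square root of F. Trem2 had an exact paired permutation test over 1024 sign flips, whose smallest p is 0.00195. Pairs come from the titles; within animals, deviations from the group means correlated from -0.21 to 0.50, above 0.1 in 5 of 10. Within a group, no 2 libraries agreed within counting noise (chi-square per degree of freedom at least 2.22). The edgeR script was tested on simulated counts with the same spread for every gene in both hemispheres and no animal effect. The real counts spread more ipsilaterally, so that test does not show how the fit performs here.

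The members and lists were chosen with earlier results of these data known. Named genes are the 7 members, the 2 tested genes nearest to each, tested genes of the lists, and low genes of the lists as defining markers. Tnfrsf13c, Cd84, Cd86, Nos2, Arg1 and Pecam1, under the minimum, were named after their values were seen. Alternatives were 5 other scalings, DESeq2 1.42.0, other minimum counts, background subtraction, no block, and each animal left out. Each animal is 1 sample per hemisphere. Some named genes are not reported here.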

Additional observations from a re-analysis of the deposited data

How the results depend on the processing

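The calls of Ptprc, Fcer1g, Cd37, Blnk, Lyz2 and Mrc1 as higher on the injured side held under each alternative in which the gene was tested (21 or 22 each), with edgeR or DESeq2 adjusted p of at most 0.0419. Leaving out 1 animal moved their log2 fold changes at most from 1.48 to 1.86 for Ptprc, 1.53 to 1.93 for Lyz2 and 1.09 to 1.48 for Mrc1. At a minimum count of 50 only 3 of the members were tested and called. No call of a member changed without the animal block, where 109 genes were called in all, 96 higher and 13 lower. Over all tested genes, 111 were called, 91 higher and 20 lower. The split was 58 and 47 under TMM, 56 and 50 under DESeq2's size factors, and 40 and 71 under median centring. Genes called lower numbered 12 without Gusb, 9 with no minimum count and 13 after background subtraction. Without 1 animal in turn, 81 to 126 genes were called, 70 to 105 higher and 9 to 23 lower. Without animals 7 and 8 together, an alternative chosen after seeing the data, 60 were called, 57 higher and 3 lower, and the same 6 members were called. The cause of these shifts was not tested.

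The difference of Trem2 (0.10) changed sign with TMM (-0.16), DESeq2's size factors (-0.19), median centring (-0.32), all 20 housekeeping genes (-0.0049), background subtraction (-0.18) and without animals 7 and 8 (-0.081). Without 1 animal it ran up to 0.19 (-0.0056 and -0.042 without animals 2 and 7), and no exact p was under 0.16. The signs of genes that did not pass in the main analysis also turned. Cd7 stood at -0.042 (TMM), -0.078 (DESeq2's size factors) and -0.21 (median centring), Mertk at -0.031 (DESeq2's size factors) and -0.17 (median centring), and Prkcd at -0.034 (median centring). Prkcd (0.42 in the main analysis) was called higher in DESeq2 (0.42, adjusted p = 0.0458), without Gusb (0.48, 0.0341), after background subtraction (0.46, 0.0493) and without animals 3 (0.48, 0.037) or 12 (0.54, 0.0153). Counts of Trem2 and contralateral Ptprc lie near the negative controls, and whether depth or probe binding limits them was not tested. With the animal as a block, the p-values weigh the mean hemisphere difference against its variation between these animals, under unknown treatments.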

Other observations

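Genes often used to describe macrophage states were low in both hemispheres. Cd86, a costimulatory protein, averaged 7.57 contralateral and 14.7 ipsilateral scaled counts and was higher in 6 of 10 animals. Nos2, the inducible nitric oxide synthase, averaged 9.16 and 16.3 and was higher in 7 of 10. Arg1, arginase, averaged 12.3 and 13.6 and was higher in 6 of 10. Cd86 exceeded the highest negative control of its library in 10 of 20 libraries, Nos2 in 6 and Arg1 in 13. All were under the minimum count of the main analysis. At a minimum count of 10, edgeR gave log2 fold changes of 1.02 ± 0.36 for Cd86, 0.86 ± 0.43 for Nos2 and 0.18 ± 0.20 for Arg1 (SE, adjusted p = 0.0345, 0.112 and 0.432). The call of Cd86 was lost with no minimum count (0.99 ± 0.37 SE, edgeR adjusted p = 0.0728). These values are to be read against all genes of each setting. The median log2 fold change was 0.38 over 265 genes at a minimum count of 10 and 0.56 over 750 with none. Negative controls averaged 4.68 contralateral and 6.67 ipsilateral scaled counts.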
